A study of Gallus gallus with 12 samples.

Results

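The genes described here code for the integrins, cadherins, protocadherins, claudins, JAMs and nectins of chicken primordial germ cells (PGCs). They were taken from the deposited expression table by name alone, as every row named ITGA with a digit or V, ITGB or CDH with a digit, PCDH, CLDN, JAM2, JAM3 or NECTIN. Of 24356 rows, 70 matched. Of these, 66 belong to the 6 families (10 integrin α, 7 integrin β, 18 cadherin, 14 protocadherin, 12 claudin and 5 JAM or nectin genes). The other 4, ITGB1BP1, ITGB1BP3, ITGB3BP and CLDND1, share only the letters of the name and are given as a group of their own. The 70 rows lie on 20 chromosomes, with 1 on Z (ITGA2) and 0 on W.

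Integrins are pairs of an α and a β chain that bind cells to the extracellular matrix and to some surface proteins of other cells. Classical cadherins join neighbouring cells in a calcium-dependent way, protocadherins are their relatives without the classical cytoplasmic tail, and claudins, JAMs and nectins are found at tight and adherens junctions. Avian PGCs travel to the gonad through the blood, leave the vessels and settle in the gonadal ridge, so that the same cells are found first free in plasma and then among somatic cells.

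RNA was sequenced from PGCs of white Leghorn embryos sorted by flow cytometry for SSEA-1, a surface antigen of early chicken PGCs, with no genetic change or treatment. Gonadal PGCs (gPGCs) came from gonads at E4.5 and E6.5, which were dissociated with the TrypLE enzyme, and blood PGCs (cPGCs) came from embryos at E2.5. Each stage was sampled from female (ZW) and male (ZZ) embryos, in 2 pools of 6 to 14 embryos each, which gave 12 libraries, 8 gonadal and 4 blood, 6 of each sex. Site, age and dissociation changed together between blood and gonad and cannot be told apart, a pool of embryos counts as 1 replicate, and p-values measure only the spread between such pools. The libraries were made from amplified cDNA, and RNA level does not give the amount of protein on the surface.

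Expression is given in TPM, in which reads are corrected for gene length and every library adds up to 1000000, so levels can be set side by side between genes. The libraries held 7185031 to 13749166 reads on genes, and 3 reads on a gene of 1 kb were worth 0.386 to 0.702 TPM. The germ cell markers, 12 of 12 in the table, summed to 3120 to 4878 TPM in gonadal PGCs and 3533 to 6138 TPM in blood PGCs. Some libraries stood apart. Hemoglobin genes took 16.5% of all TPM in the first female E2.5 pool, 4.45% and 1.59% in the male E2.5 pools and 0.257% in the second female one, against 0.00962% to 0.0631% in gonadal libraries. The first E4.5 pools of both sexes had the fewest reads. Markers of mesonephric (embryonic kidney) epithelium were high in the female E6.5 pools.

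A gene was tested where it reached 1 TPM in at least 2 of the 12 libraries. This left 46 of the 70 matched rows, 42 of them family members, and 24 were too low to test. Of the 24, 3 had 0 reads in every library, and 9 of the 70 rows had no more than 3 reads in any library. Tested members were 6 of 10 integrin α, 3 of 7 integrin β, 15 of 18 cadherins, 7 of 14 protocadherins, 6 of 12 claudins and all 5 JAMs and nectins. Since a gene that is high in only some of the libraries can pass such a filter, the tested members are not all members.

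**Figure D1:**
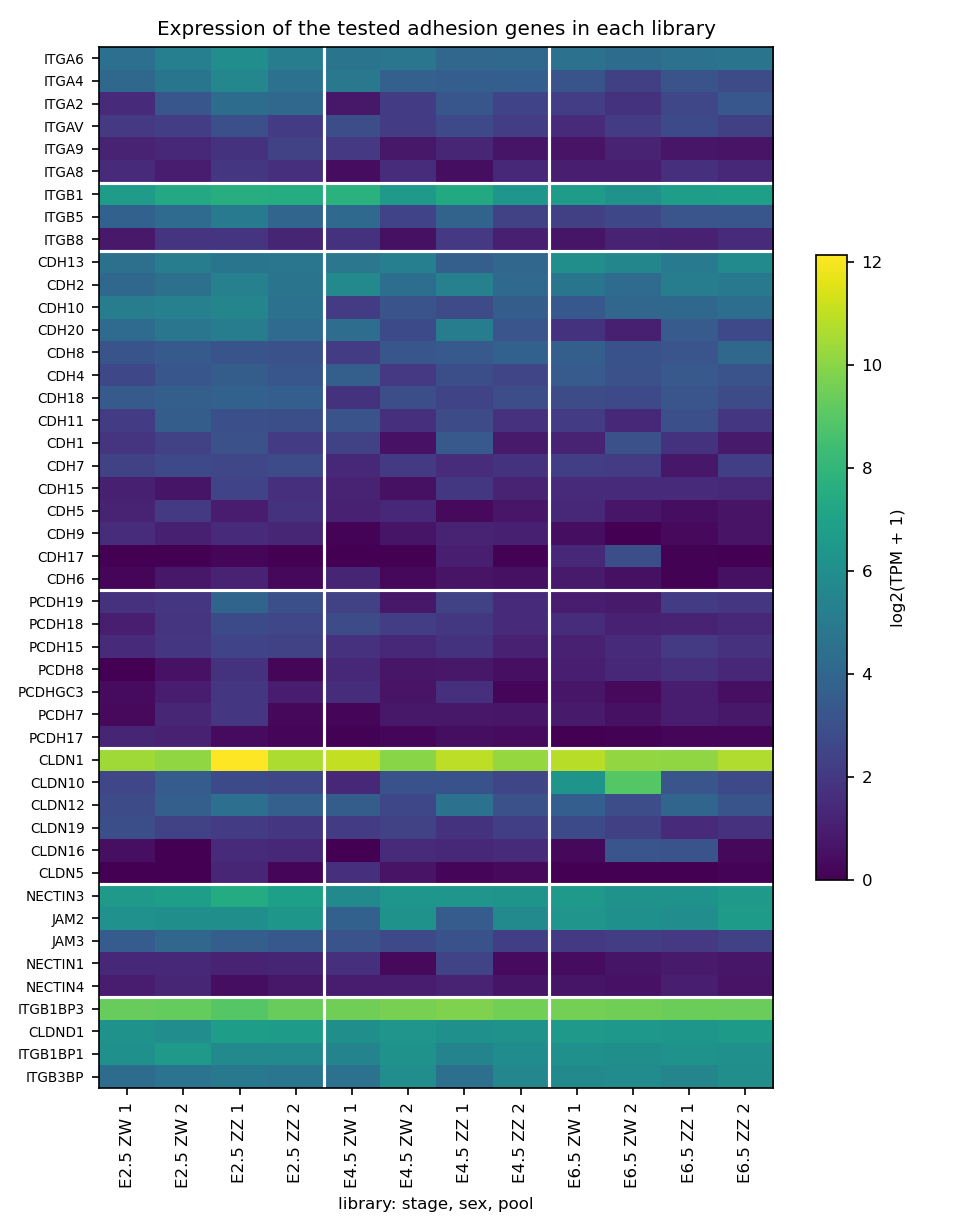
Expression of the 46 tested members (rows, grouped by family and ordered by mean level) in the 12 libraries (columns, by stage, female before male), as log2(TPM + 1) on the colour scale. CLDN1 is the brightest row, between 1014 and 4494 TPM in every library, and CLDN10 is bright only in the female E6.5 pools, at 76.6 and 492 TPM.

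The PGCs expressed few of these genes strongly. CLDN1, a barrier-forming claudin best known from skin, was the most abundant member by far, ranked 69 of all genes by mean TPM. CLDN1 ran from 1014 to 2084 TPM, with a median of 1406 TPM, in the 8 gonadal libraries, against 1118, 1375, 1592 and 4494 TPM in the 4 blood libraries. The groups overlapped, and the highest value was that of the first male blood pool. ITGB1, the β chain shared by most matrix-binding integrins, ran from 72.0 to 218 TPM (median 103) in gonadal PGCs and from 98.6 to 185 TPM (median 169) in blood PGCs. NECTIN3 (mean 92.5 TPM over all libraries), which binds other nectins on the neighbouring cell, and JAM2 (61.7 TPM) came next among the family members, with CLDN10 (52.5 TPM) owing its mean to the female E6.5 pools.

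Among the 10 α chains matched by name, ITGA6, a chain of laminin receptors, was the most abundant. It ran from 15.3 to 26.2 TPM (median 21.8) in gonadal PGCs, against 20.3, 33.8, 36.8 and 59.8 TPM in blood PGCs. ITGA4, whose heterodimer with β1 binds fibronectin and VCAM1, had a mean of 16.6 TPM over all libraries, ITGA2, a chain of a collagen receptor, 6.77 TPM and ITGAV, the chain of RGD-binding integrins such as vitronectin receptors, 4.18 TPM. ITGA9 and ITGA8, chains of receptors for matrix proteins such as tenascin and nephronectin, had means of 1.52 and 1.46 TPM. ITGAV was nearly level, with 4.18 ± 1.46 TPM in gonadal PGCs (SD, n = 8) and 4.17 ± 1.74 TPM in blood PGCs (SD, n = 4), a log2 difference of 0.00 (SE 0.34). Next to ITGB1, the β chains were ITGB5, which pairs with αV, at a mean of 11.6 TPM, and ITGB8, another partner of αV, at 1.60 TPM. ITGB1 stood above the sum of the 10 matched α chains in every library, by 1.97 to 3.79 times in gonadal PGCs and 1.33 to 2.23 times in blood PGCs. That sum is not all α chains. ITGA1 and ITGA5 had no row under these names, and names such as ITGAL fall outside the rule.

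The integrin chains ITGA2B, ITGB3 and ITGB2, taken here as those of thrombocytes and leukocytes, were low in every library. ITGA2B, the α chain of the platelet and thrombocyte fibrinogen receptor, had no more than 2 reads in any library. ITGB3, its partner, had 19 reads (1.02 TPM) in the second female E2.5 pool and no more than 3 reads in any other library. ITGB2, the β chain of leukocyte integrins, reached 0.483 TPM at most in gonadal PGCs and 0.918 TPM at most in blood PGCs. Thrombocyte markers (8 of 9 in the table) summed to 13.2 to 29.4 TPM in gonadal libraries and 23.9 to 96.4 TPM in blood libraries, with TUBB1 the highest in every library, and GP9 and RUNX1 were at 0.82 TPM or less in every library. Leukocyte markers (6 of 8) summed to 7.64 to 19.9 TPM in gonadal and 10.01 to 35.6 TPM in blood libraries, with LYZ at 0 throughout.

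The cadherins were led by CDH13 (T-cadherin, anchored by a lipid and without a cytoplasmic tail) at a mean of 32.8 TPM, CDH2 (N-cadherin) at 27.6 TPM and CDH10, a type II classical cadherin, at 19.1 TPM. CDH20, CDH8, CDH18 and CDH11, all type II cadherins, followed at 15.2, 9.19, 7.55 and 5.07 TPM, and CDH4 (R-cadherin) at 7.80 TPM. CDH2 averaged 29.0 ± 11.8 TPM in gonadal PGCs (SD, n = 8) and 24.9 ± 9.57 TPM in blood PGCs (SD, n = 4), a log2 difference of 0.19 (SE 0.32). CDH1 (E-cadherin) was lower and more variable, from 0.494 to 9.51 TPM (median 1.83) in gonadal PGCs and 2.57, 3.36, 4.13 and 7.08 TPM in blood PGCs. CDH5, the cadherin of endothelium, ran from 0.238 to 1.62 TPM in gonadal and from 0.894 to 3.21 TPM in blood PGCs, and CLDN5, its tight junction counterpart, was at 0 in 3 gonadal and 2 blood libraries and reached 2.13 TPM in the first female E4.5 pool. Endothelial markers (9 of 12 in the table) summed to 8.68 to 34.4 TPM in gonadal and 25.2 to 39.5 TPM in blood libraries, mostly PECAM1, VWF and EGFL7, while KDR and TEK stayed under 1 TPM in every library.

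No protocadherin reached a mean of 10 TPM. PCDH19, which acts together with N-cadherin, led with a mean of 3.73 TPM, before PCDH18 at 2.84 TPM and PCDH15, the tip-link protein of hair cells, at 2.43 TPM. The genes of the clusters on chromosome 13 share exons, so reads may not be divided correctly among them. Of these, PCDHGC3 had a mean of 1.02 TPM, and the 4 others named for a cluster (PCDHAC1, PCDHB4, PCDHGC5 and PCDHA4) had means of 0.0472 TPM or less. Besides CLDN1 and CLDN10, the claudins held CLDN12 at a mean of 11.3 TPM and CLDN19 at 3.66 TPM. The 3 claudins CLDN20, CLDN3 and CLDN18 had means of 0.329, 0.213 and 0.210 TPM, and CLDN23 had no read at all.

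To ask how adhesion genes differed between gonadal and blood PGCs, all 12 libraries were fitted together with limma on log2(TPM + 1), and p-values were adjusted over the 14154 genes tested with the Benjamini-Hochberg method. Log2 differences are gonadal minus blood on the log2(TPM + 1) scale, which understates the difference of low genes. In bulk samples, fewer cells of a type and less RNA per cell cannot be told apart. Of the 46 tested members, 0 rose and 1, CDH10, fell at an adjusted p under 0.05. Over all genes, 0.996% passed in either direction and 0.805% as lower. At an unadjusted p under 0.05 there were 15 members, beside 2061 of the 14154 genes. Of these 15, the 13 that belong to the families were all negative (ITGA2, ITGA4, ITGA6, ITGB5, CDH7, CDH9, CDH10, CDH18, CDH20, PCDH17, PCDH19, JAM3 and NECTIN3), and the 2 positive ones (ITGB1BP3 and ITGB3BP) were rows matched by name alone. The members' median log2 difference was -0.34, against -0.09 over all genes tested, and 35 were negative and 11 positive. These counts include PCDH17, which had 40 and 25 reads in the female blood pools and 8 or fewer in each gonadal library. They also include CDH17, with 2, 0, 0 and 0 reads in the blood libraries. PCDH17 passed the filter only through blood and CDH17 only through gonadal libraries, so their signs were set by it.

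CDH10 (GRCg6a chromosome 2, 72101114 to 72196923, plus strand) had 3.46, 7.63, 5.94 and 10.98 TPM in the E4.5 libraries and 9.07, 15.3, 16.3 and 19.96 TPM in the E6.5 libraries (each time female pools 1 and 2, then male pools 1 and 2), against 34.6, 37.6, 45.5 and 22.5 TPM in the blood libraries in the same order. These values rest on 50 to 524 reads in a gonadal library and 591 to 987 reads in a blood library. No gonadal library reached the lowest blood library. The mean was 11.1 ± 5.67 TPM in gonadal PGCs (SD, n = 8) and 35.0 ± 9.56 TPM in blood PGCs (SD, n = 4), with a log2 difference of -1.69 (SE 0.32, adjusted p = 0.0295 by limma), a level 3.23-fold lower in gonadal PGCs on the TPM + 1 scale. The call did not hold without any 1 of the 4 blood libraries (log2 difference -1.94 to -1.44, adjusted p 0.0780 to 0.167) or any 1 of the 4 E6.5 libraries (-1.78 to -1.60, adjusted p 0.0597 to 0.0967), nor with median-of-ratios scaling (-1.56, adjusted p = 0.0605) or without the filter on low genes (adjusted p = 0.0563), where PCDH17, as lower, was the 1 member called instead. It held with limma-voom on the reads recovered from the TPM (-1.76, adjusted p = 0.0194). In each fit without a blood or an E6.5 library, fewer of all genes passed as well. Fewer also passed without the filter (0.531%, against 0.996%), but not with median-of-ratios scaling (1.01%).

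For 4 of the 46 members (8.70%) every gonadal library was below every blood library, against 1.95% of all genes tested. They were CDH10 and 3 more that did not pass the test, CDH18, CDH7 and JAM3, named here after their values were seen. CDH18, like CDH10 a type II cadherin, ran from 2.42 to 8.11 TPM (median 5.89) in gonadal PGCs, against 9.91, 11.3, 11.6 and 12.7 TPM in blood PGCs (log2 difference -0.94, SE 0.32, adjusted p = 0.192). CDH7, known in the chick from migrating neural crest cells, ran from 0.740 to 3.82 TPM (median 2.81) in gonadal PGCs, against 4.34, 4.95, 5.41 and 5.95 TPM in blood PGCs (-0.84, SE 0.36, adjusted p = 0.297). JAM3, which binds JAM2 across cell contacts in mammals, ran from 3.06 to 7.51 TPM (median 3.87) in gonadal PGCs, against 9.06, 10.6, 11.7 and 14.9 TPM in blood PGCs (-1.17, SE 0.32, adjusted p = 0.104). With limma-voom on recovered reads, JAM3 and CDH10 were the 2 members called, both lower, where 1.31% of all genes were lower. In the other direction, ITGB1BP3 had every gonadal library above every blood library, 1 of 46 (2.17%) against 0.876% of all genes.

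**Figure D2:**
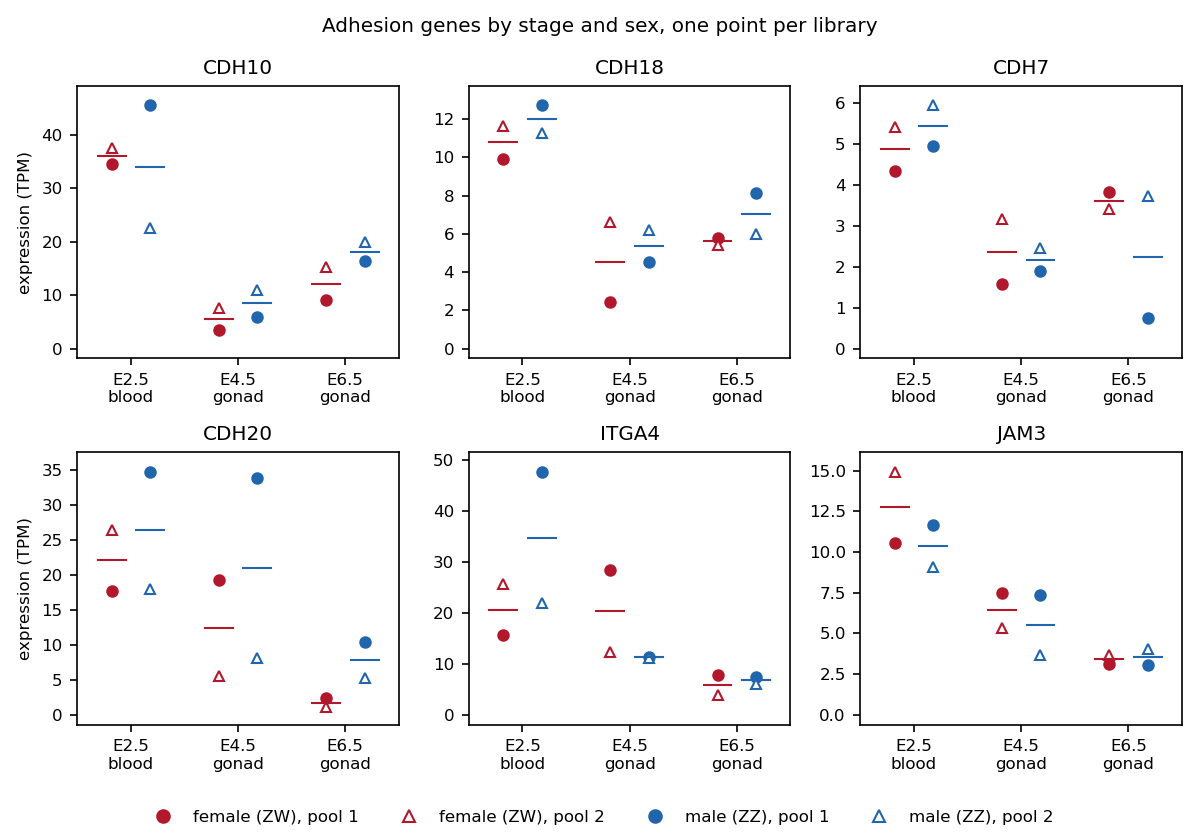
TPM of CDH10, CDH18, CDH7, CDH20, ITGA4 and JAM3 in each library, by stage (x axis) and sex (red female, blue male; circles first pool, triangles second pool, horizontal lines the mean of 2 pools). The blood libraries of CDH10 (22.5 to 45.5 TPM) all lie above its gonadal libraries (3.46 to 19.96 TPM), whereas the first E4.5 pools of CDH20 (19.3 and 33.8 TPM) reach its blood range (17.7 to 34.7 TPM).

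The 2 gonadal stages were then set against blood one at a time, with the same 4 blood libraries in both comparisons. At E4.5, CDH10 was again the 1 member called (log2 difference -2.22, SE 0.37, adjusted p = 0.0394), a level 4.66-fold lower than in blood on the TPM + 1 scale. Over all genes 0.184% passed. At an unadjusted p under 0.05 there were 9 of 46 members and 1576 of 14154 genes. At E6.5 the log2 difference of CDH10 was -1.16 (SE 0.37, adjusted p = 0.136). The E4.5 call was lost when any 1 library other than the second E4.5 pools was left out, and with limma-voom, which called 0 members and 0 of all genes there. Fewer of all genes passed in each of these fits.

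At E6.5, 3 members passed, 1 higher (0.918% of all genes were called higher) and 2 lower (1.06% of all genes). ITGA4 fell to 7.77, 3.90, 7.51 and 6.05 TPM at E6.5 (female pools, then male pools), against 15.6, 25.5, 47.6 and 21.8 TPM in blood, with no overlap (log2 difference -1.89, SE 0.39, adjusted p = 0.0316). CDH20, a further type II cadherin, fell to 2.40, 1.09, 10.3 and 5.31 TPM, against 17.7, 26.4, 34.7 and 17.9 TPM in blood, again with no overlap (-2.35, SE 0.51, adjusted p = 0.0386). The share of all genes without overlap between the 4 E6.5 and the 4 blood libraries was not counted. At E4.5 the differences of these genes from blood were -0.76 for ITGA4 (SE 0.39, adjusted p = 0.507) and -0.76 for CDH20 (SE 0.51, adjusted p = 0.630). CLDN10 was the member called higher (2.43, SE 0.56, adjusted p = 0.0478), and its values are given with the sexes below. It was not called with a pseudocount of 0.1 or with limma-voom, and without the filter on low genes ITGA4, CDH20 and CLDN10 were all not called. JAM3, at 3.06 to 4.04 TPM in all 4 E6.5 libraries, came close to the threshold (-1.47, SE 0.36, adjusted p = 0.0593). None of the 3 calls held without any 1 of the 4 blood libraries, either male E6.5 pool or the second female E6.5 pool. CDH20 was also lost without the first female E6.5 pool. Over all genes, too, fewer passed in each of these fits. More members passed without the first female E4.5 pool, as did more genes of all kinds.

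**Figure D3:**
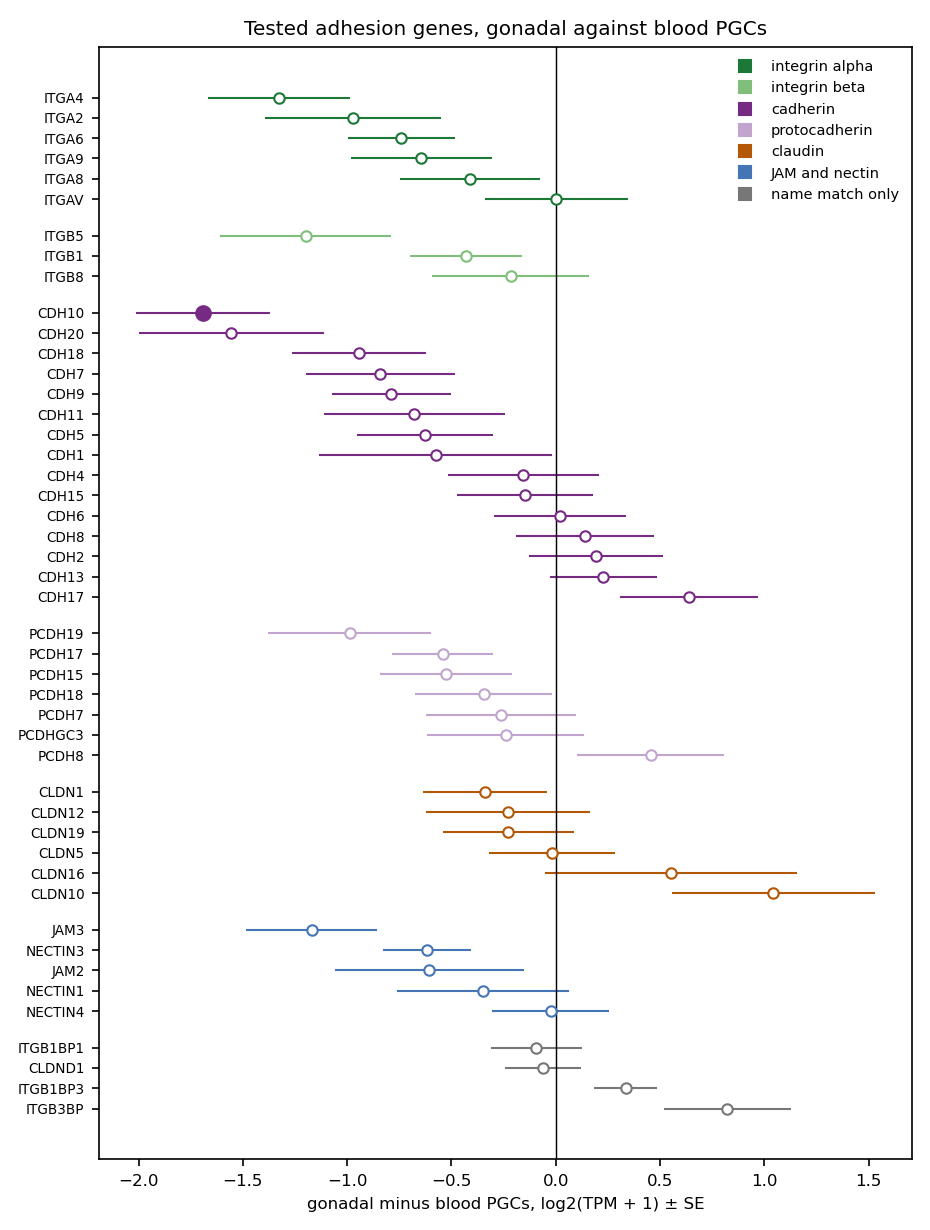
Log2 difference, gonadal minus blood PGCs, on the log2(TPM + 1) scale, with its standard error (horizontal bar) for each of the 46 tested members, grouped by family. CDH10 (filled) is the 1 member past the threshold, and points of all 3 integrin β, of 5 of 6 integrin α and of all 5 JAM and nectin genes lie below 0.

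By family, most members that did not pass had negative log2 differences. All genes tested leaned the same way, with a median of -0.09 and with 27 called higher and 114 lower. That median was 0.01 with median-of-ratios scaling. The share of negative genes over all genes was not counted, and the counts by family carry no test. They include CDH17 and PCDH17, whose signs were set by the filter. Of 6 integrin α genes, 5 had negative log2 differences (family median -0.69), and all 3 integrin β genes did (median -0.43). ITGB5 ran from 3.89 to 16.9 TPM (median 6.68) in gonadal PGCs, against 12.7, 14.8, 17.6 and 29.5 TPM in blood PGCs (-1.20, SE 0.41, adjusted p = 0.194), ITGA6 differed by -0.74 (SE 0.26, adjusted p = 0.202) and ITGB1 by -0.43 (SE 0.27, adjusted p = 0.515). All 5 JAM and nectin genes were negative (median -0.61), with NECTIN3 at 77.8 ± 12.7 TPM in gonadal PGCs (SD, n = 8) and 122 ± 35.9 TPM in blood PGCs (SD, n = 4; -0.62, SE 0.21, adjusted p = 0.196). The medians were -0.575 for 15 cadherins, of which 10 were negative, -0.35 for 7 protocadherins, of which 6 were negative, and -0.12 for 6 claudins, of which 4 were negative. PCDH18 averaged 2.49 ± 1.55 TPM in gonadal PGCs (SD, n = 8) and 3.54 ± 2.10 TPM in blood PGCs (SD, n = 4), and PCDH15 averaged 1.98 ± 0.716 TPM in gonadal and 3.34 ± 1.28 TPM in blood PGCs. CLDN12 was at 10.7 ± 5.72 TPM in gonadal and 12.4 ± 5.88 TPM in blood PGCs, and ITGB8 at 1.47 ± 0.889 TPM in gonadal and 1.85 ± 0.949 TPM in blood PGCs, differences well within the spread of either group. CLDN1 differed by -0.34 (SE 0.30, adjusted p = 0.655). CDH13 was positive, at 0.23 (SE 0.26, adjusted p = 0.744), and averaged 48.7 ± 13.8 TPM at E6.5 (SD, n = 4), against 27.0 ± 5.53 TPM in blood (SD, n = 4; 0.80, SE 0.30, adjusted p = 0.200).

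The cadherin genes lie partly side by side. Chromosome 2 holds 9 of the 18, and 5 of them (CDH20, CDH6, CDH9, CDH10 and CDH18, all type II cadherins) follow one another between 68583087 and 74441847 on GRCg6a. Of the 8 tested on chromosome 2, 5 were negative (CDH20, CDH9, CDH10, CDH18 and CDH7) and the median log2 difference was -0.81, against -0.12 for the 1255 genes tested on that chromosome. CDH6, between CDH20 and CDH9, was low and level (0.02, SE 0.32), and CDH2, farther along the chromosome, was positive. CDH17, farther still, was positive as well, but had 2, 0, 0 and 0 reads in the blood libraries. It passed the filter only through gonadal libraries, so its sign was set by the filter. On chromosome 11, 4 of 6 tested cadherins were negative, with a median of -0.36, against 0.00 for the 353 genes tested there. These counts describe neighbouring genes and carry no test.

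The proteins that tie these receptors to the cytoskeleton and to each other, a list of 49 junction and focal adhesion partners, were counted alongside. Of the 41 tested, 0 rose and 2 fell in gonadal against blood PGCs, where 0.805% of all genes were called lower. Their median log2 difference was -0.54, against -0.09 over all genes tested. EPCAM, an epithelial adhesion molecule, fell to 466.4 to 1193 TPM in gonadal PGCs, against 1427 to 1857 TPM in blood PGCs (-1.34, SE 0.21, adjusted p = 0.0101 by limma). CGNL1, a tight junction plaque protein, fell to 15.7 to 61.4 TPM in gonadal PGCs, against 62.6 to 152 TPM in blood PGCs (-1.86, SE 0.29, adjusted p = 0.0101 by limma). The groups did not overlap for either gene, and 1.95% of all genes had every gonadal library below every blood library. The calls of these partner genes were not followed through the alternative settings.

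The first E4.5 pools bear on all gonadal values. Of the 23 members with a mean of 5 TPM or more, the first pool was above the second in both sexes for 10 and below it in both for 9. The first pool was more than 2-fold higher in both sexes for 6 (CDH20, ITGB5, CDH11, CDH2, CLDN12 and ITGB1) and more than 2-fold lower in both for 2 (JAM2 and ITGB3BP). JAM2 had 12.8 and 10.7 TPM in the first female and male E4.5 pools and 72.3 and 53.0 TPM in the second pools of that stage, beside 60.7 to 101 TPM at E6.5 and 63.9 to 85.0 TPM at E2.5. ITGB5 had 16.9 and 13.8 TPM in the first pools and 4.36 and 4.19 TPM in the second. A log2 difference of over 1 between pools was seen for 14 of the 23 members in E4.5 females (60.9%, and 39.9% of all genes at that level) and 8 in E4.5 males (34.8% and 36.6%), against 1 or 2 of 23 in each E2.5 and E6.5 group.

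**Figure D4:**
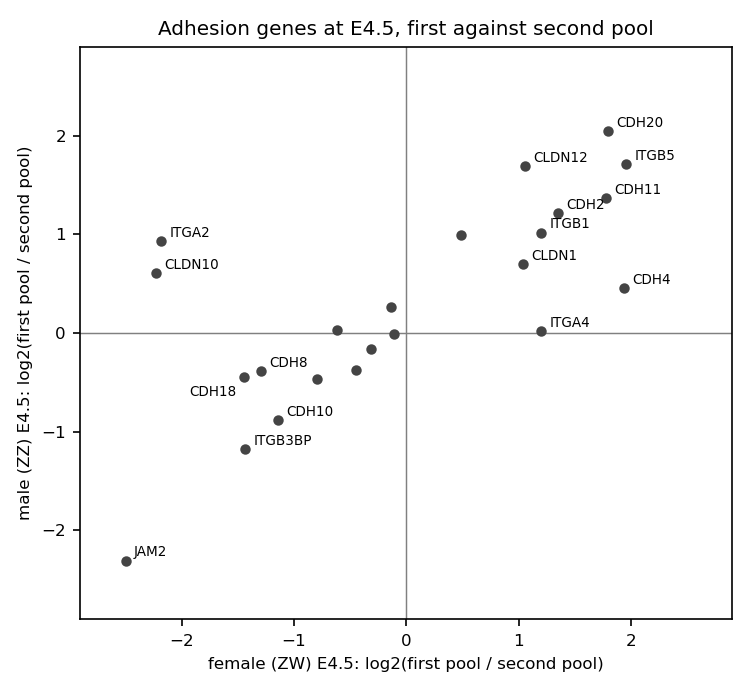
Log2 ratio of the first to the second E4.5 pool in females (x axis) and males (y axis) for the 23 members with a mean of 5 TPM or more, with a label where the ratio is over 2-fold in either sex. JAM2 lies lowest in both sexes, at 0.177 and 0.202 times the second pool, and CDH20 and ITGB5 lie more than 3-fold up in both.

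Without the first E4.5 pools, 8 of 43 tested members were called in gonadal against blood PGCs, 7 lower and 1 higher. These were CDH20 (-2.0), ITGB5 (-1.61), CDH10 (-1.47), ITGA4 (-1.47), JAM3 (-1.33), PCDH19 (-1.30), ITGB1 (-0.71) and, higher, ITGB3BP (1.14). Many more genes of all kinds passed as well, 8.31% as lower. The members' median was then -0.54, against -0.19 over all genes. The E4.5 call of CDH10 was not made with only the second pools of that stage.

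Blood libraries also held more RNA of blood cells. Erythroid markers (11 of 17 in the table) summed to 100 to 632 TPM in gonadal libraries and 2572 to 165438 TPM in blood libraries, with 5 of 9 tested markers called lower in gonadal PGCs (median log2 difference -6.04). In the blood libraries, CDH10 was at 34.6 TPM beside 16.5% hemoglobin, 45.5 TPM beside 4.45%, 22.5 TPM beside 1.59% and 37.6 TPM beside 0.257%. Gonadal somatic markers (14 of 14) summed to 10.4 to 36.8 TPM in gonadal and 7.46 to 14.1 TPM in blood libraries. COL3A1 was the highest of them in every library, and NR5A1 and GATA4 were under 1 TPM in every library. AMH had 5.602 and 2.372 TPM in the male E6.5 pools, against 0.0466 and 0 TPM in the female ones. It had 2.82 TPM in the first female E4.5 pool and 0.501 TPM at most in blood libraries. COL1A1 and LHX9 passed 1 TPM in some gonadal and some blood libraries. Of 6 of these markers tested, 0 were called between gonadal and blood PGCs (median log2 difference 0.225). The part of these cells in the differences above was not tested. Taking hemoglobin genes out of the TPM sum mainly raises the blood values and removes no other blood cell RNA (CDH10 then differed by -1.78).

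Of the 4 rows matched by name alone, all were well expressed and none passed. ITGB1BP3, a nicotinamide riboside kinase in human nomenclature, averaged 746 ± 74.1 TPM in gonadal PGCs (SD, n = 8) and 592 ± 69.1 TPM in blood PGCs (SD, n = 4; log2 difference 0.34, SE 0.15, adjusted p = 0.332). ITGB3BP, a centromere protein, ran from 21.6 to 61.9 TPM (median 52.2) in gonadal PGCs, against 18.7, 23.5, 26.5 and 29.0 TPM in blood PGCs (0.82, SE 0.30, adjusted p = 0.232), and the first E4.5 pools were the gonadal libraries within the blood range. CLDND1 (-0.06) and ITGB1BP1 (-0.09), which binds the tail of integrin β1, were level.

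The sexes were compared next, as female minus male, first over all stages in the 12-library fit. Of the 46 members, 0 passed by limma and 0 by limma-voom, and 0.671% of all genes passed. At an unadjusted p under 0.05 there were 4 of 46 members and 1090 of 14154 genes. For 0 members was every female library above every male library, or below (0.219% and 0.841% of all genes). The members' median log2 difference was -0.195, against -0.11 over all genes tested, and 32 of 46 members were negative. All 6 integrin α genes were negative (family median -0.20). The share of negative genes over all genes was not counted, and these counts carry no test. With median-of-ratios scaling the median over all genes was 0.03, so the lean of all genes depended on the scaling. ITGA2 had the lowest p. It ran from 0.728 to 8.59 TPM (median 2.86) in females and from 4.45 to 18.3 TPM (median 8.60) in males (log2 difference -1.39, SE 0.40, adjusted p = 0.185). ITGA2 is the 1 member on the Z chromosome, of which males carry 2 copies and females 1, and the median log2 difference of the 670 Z-linked genes tested was -0.84, with 95.2% of them lower in females. Within the stages, the difference of ITGA2 was -1.82 at E2.5 (SE 0.64), -1.40 at E4.5 (SE 0.86) and -0.95 at E6.5 (SE 0.40), beside Z-linked medians of -1.11, -0.78 and -0.87. The medians over all genes tested were -0.34, 0.03 and -0.08. The E2.5 values thus include a shift of all genes, whose median was -0.02 with median-of-ratios scaling.

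PCDH19 ran from 0.714 to 4.25 TPM (median 1.63) in females and from 1.82 to 13.9 TPM (median 3.82) in males (-1.02, SE 0.37, adjusted p = 0.409). Its female libraries were below its male libraries at E2.5 and at E6.5, but overlapped them at E4.5. The share of all genes without overlap between the sexes within a stage was not counted. CDH13 was the other member with an unadjusted p under 0.05 besides CLDN10, at 38.5 ± 15.0 TPM in females (SD, n = 6) and 27.2 ± 14.9 TPM in males (SD, n = 6; 0.56, SE 0.24, adjusted p = 0.594).

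Each stage was also fitted on its own 4 libraries. At E2.5, 0 of 40 tested members passed by limma and 0 by limma-voom, and 0.242% of all genes passed. Unadjusted, 4 of 40 members and 1438 of 12381 genes had a p under 0.05. The median log2 difference was -0.41 for the members and -0.34 for all genes. With median-of-ratios scaling that of all genes was -0.02. At E4.5, 0 of 39 passed by either tool, and 0.0164% of all genes passed. Unadjusted, 0 of 39 members and 121 of 12229 genes had a p under 0.05. Whether the difference between the sexes was itself unlike in gonadal and blood PGCs was tested in the 12-library fit, and 0 of 46 members passed by limma or by limma-voom, and 0% of all genes passed. At an unadjusted p under 0.05 there were 2 of 46 members (PCDH17 and PCDH18) and 611 of 14154 genes. PCDH17 passed the filter only through the female blood pools, so its direction was set by it.

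At E6.5, 1 of 36 tested members passed, CLDN10, higher in females, where 1.38% of all genes were higher. Claudin 10 forms ion-selective pores in the tight junctions of kidney tubules and other epithelia in mammals. CLDN10 (GRCg6a chromosome 1, 147451550 to 147510983) had 76.6 and 492 TPM in the female E6.5 pools, against 8.23 and 5.48 TPM in the male E6.5 pools. At E4.5 it had 1.56 and 7.33 TPM in females and 7.38 and 4.83 TPM in males, and at E2.5 5.07 and 10.4 TPM in females and 5.59 and 4.94 TPM in males. The log2 difference at E6.5 was 4.66 (SE 0.71, adjusted p = 0.0177), a 25.3-fold higher level in females on the TPM + 1 scale. The call was lost without the filter on low genes (adjusted p = 0.162), with median-of-ratios scaling (0.0559), with limma-voom (0.176) and without either male E6.5 pool (0.0880 and 0.123). Without the second female pool the log2 difference was 3.33.

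The same female E6.5 pools were high in markers of mesonephric epithelium, the embryonic kidney that lies beside the gonad. The 11 of 12 markers in the table summed to 59.5 and 374 TPM in the female E6.5 pools and 7.52 and 6.35 TPM in the male E6.5 pools, with 5.41 to 27.3 TPM in the other gonadal and 6.99 to 11.5 TPM in the blood libraries. Of 7 tested at E6.5, 3 were called higher in females by limma (SLC34A1, AMN and SLC3A1), but several of the 7, SLC34A1 among them, passed the filter only through the female pools, so that their direction was set by it. AMN and SLC3A1 were above 1 TPM in all 4 libraries. AMN had 13.4 and 89.6 TPM in females and 1.23 and 1.26 TPM in males, and SLC3A1 had 21.1 and 127 TPM in females and 3.39 and 3.77 TPM in males. SLC34A1, a renal phosphate transporter, had 14.4 and 102 TPM in females and 0.22 and 0.31 TPM in males, HNF4A had 2.56 and 12.9 TPM in females against 0 in males, and PAX2 had 2.92 and 8.17 TPM in females and 1.34 and 0 TPM in males. GATA3 stayed at 0.30 TPM or less in all 4 E6.5 libraries. The part of such cells in the CLDN10 difference was not tested.

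**Figure D5:**
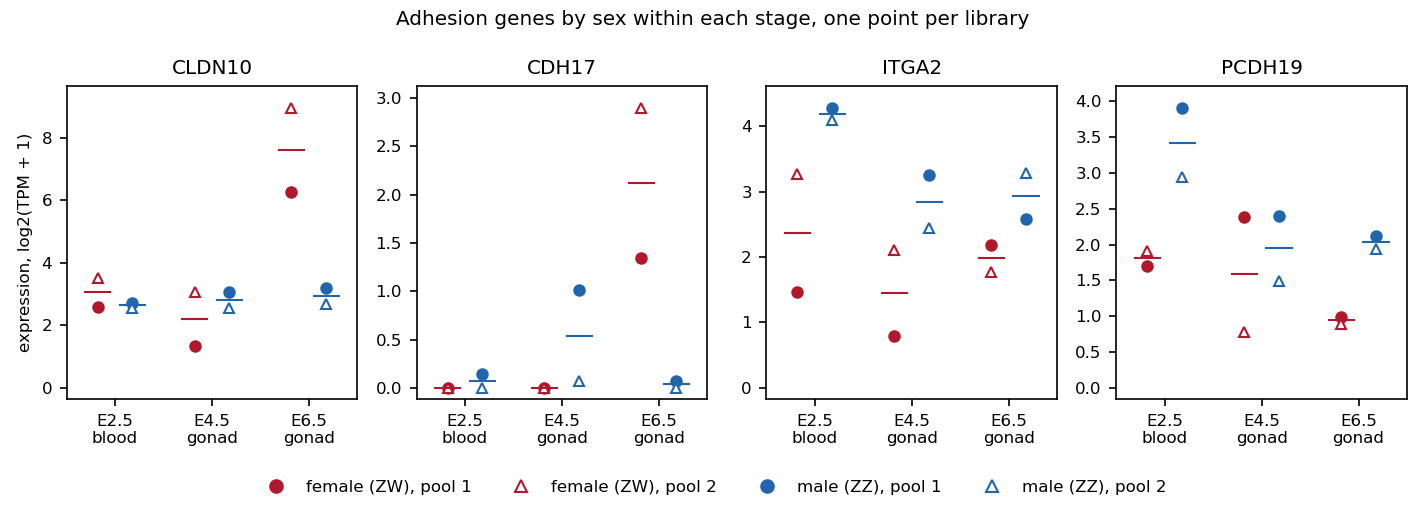
Expression of CLDN10, CDH17, ITGA2 and PCDH19 as log2(TPM + 1) in each library, by stage (x axis) and sex (red female, left; blue male, right; circles first pool, triangles second pool, horizontal lines the mean of 2 pools). The female E6.5 pools of CLDN10, at 76.6 and 492 TPM, lie far above all other libraries, and ITGA2 is higher in males on average at every stage.

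Other members at E6.5 are named after their values were seen. CDH17, a cadherin of intestinal epithelium in mammals, had 1.55 and 6.43 TPM (35 and 136 reads) in the female pools and 0.0526 and 0 TPM (1 and 0 reads) in the male pools. It passed the filter at this stage only through the female pools, so no test is given. CDH20 had 2.40 and 1.09 TPM in females and 10.3 and 5.31 TPM in males (-1.67, SE 0.45, adjusted p = 0.121). CDH1 reached 7.17 TPM in the second female pool, against 1.22 TPM in the first and 2.44 and 0.850 TPM in the males. Whether the sex difference at E6.5 was unlike that at E2.5 and E4.5 was tested in the 12-library fit, a contrast chosen after the values were seen. Of 46 members 0 passed by limma, and 0.318% of all genes passed. At an unadjusted p under 0.05 there were 2 of 46 members (CLDN10 and CDH17) and 584 of 14154 genes. CDH17 passed the filter over the 12 libraries through the female E6.5 pools and the first male E4.5 pool. Its direction was thus largely set by the filter. The difference of CLDN10 was 4.75 (SE 0.98, adjusted p = 0.0701). Of the junction and focal adhesion partners, 0 of 41 passed between the sexes over all stages by limma.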

How the data were processed

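RNA from SSEA-1-positive chicken PGCs was sequenced in 12 libraries, made from 2 pools of embryos (6 to 14 in each) per sex and stage. Per the labels, the authors ran Trimmomatic (0.39), Trim Galore (0.6.6) and cutadapt (3.1) for trimming, STAR (2.7.3a) for mapping to GRCg6a and featureCounts (2.0.1) for counting the uniquely mapped reads of each gene, and deposited TPM for 24356 genes with gene lengths. How counts were turned into TPM is not given in the sources used here. TPM multiplied by length gave whole reads in 100% of the low values checked (tolerance 0.05 reads), and these recovered reads were used only for limma-voom. The kit does not mark strand, so reads of a gene and of an overlapping antisense gene cannot be told apart, and uniquely mapped reads undercount near-identical copies. Amplified reads are not independent molecules, so read floors cover counting error only.

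Genes that reached 1 TPM in 2 or more libraries of a fit were tested with limma 3.58.1 in R 4.3.3 (lmFit, eBayes with a trend) on log2(TPM + 1), with Benjamini-Hochberg adjustment over all genes tested and a threshold of 0.05. Stages and both sexes over all stages were compared in 1 fit of 6 group means, and the sexes within a stage on its 4 libraries. With 2 libraries per group, tests on single genes rest on the spread shared across genes. The procedure was also run on simulated independent counts. These lacked the shared deviations of pools and the hemoglobin differences seen here, so that run does not show how it performs on these libraries. Alternatives were a pseudocount of 0.1, no filter, median-of-ratios scaling, TPM without hemoglobin genes, limma-voom, genes with a mean of 5 TPM, a replicate block, fold thresholds, each library left out, and both first E4.5 pools left out.

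Genes were named by a rule: members called in gonadal against blood PGCs, the 3 most abundant per family, members called between the sexes (or the 3 lowest p), and ITGA6, ITGAV, ITGB1, ITGB3, ITGA2B, ITGB2, CDH1, CDH2, CDH5, CLDN1 and CLDN5. Others were named after their values were seen. The members, marker lists, partner list and tests were chosen with earlier results of these data known. Gene positions and names are those of the deposited table, on GRCg6a. No sequences are shown. The partner genes are not reported here for the sexes within a stage.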

Additional observations from a re-analysis of the deposited data

Results flagged for a closer look

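Among 48 gene and group pairs examined (the genes named by rule, in the 8 gonadal and the 4 blood libraries, both sexes pooled), 10 held a library whose gap to its nearest neighbour was large for the range of its group. Chance gives about 1 in 20 for a single, normally distributed group. These groups pool the sexes, the gonadal one also pools stages, TPM were not log-transformed and some genes had few reads. All flagged values were high ones. The number flagged can therefore not be set against that share.

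CLDN10 held 492.4 TPM in the second female E6.5 pool, with the other gonadal libraries between 1.56 and 76.6 TPM, and 10.4 TPM in the second female E2.5 pool, with the other blood libraries between 4.94 and 5.59 TPM. In the first male E2.5 pool, CLDN1 was at 4494 TPM (others 1118 to 1592), ITGAV at 6.76 TPM (others 3.05 to 3.54) and CLDN5 at 1.51 TPM (others 0 to 0.146). That pool also had the most CSF1R and SPI1, markers of macrophages, at 8.38 and 5.61 TPM, against 0.56 and 0.25 TPM or less in the other blood libraries. Other leukocyte markers were mixed. LCP1 was highest there too, at 8.92 TPM, PTPRC and CD74 were each highest in another blood library, and LYZ was at 0. The germ cell markers also summed highest in that pool among the blood libraries, at 6138 TPM. In the first female E4.5 pool, ITGA4 was at 28.3 TPM (other gonadal libraries 3.90 to 12.3), CLDN5 at 2.13 TPM (others 0 to 0.574) and ITGB3 at 0.203 TPM (others 0 to 0.0624), the last resting on 3 reads. ITGB3 was at 1.02 TPM (19 reads) in the second female E2.5 pool and at 0 in the other blood libraries. ITGB2 was at 0.483 TPM (11 reads) in the first male E6.5 pool, with the other gonadal libraries between 0 and 0.208 TPM.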

How the results depend on the processing

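CDH10 (gonadal against blood PGCs) and CLDN10 (sexes at E6.5) kept their direction in every alternative, but not their calls. Among genes not called between gonadal and blood PGCs, the sign turned for ITGAV (-0.21 at the lowest) and CLDN5 (0.10 at the highest) in several alternatives, for CDH2 without both first E4.5 pools (-0.12), for CLDN1 without the first male E2.5 pool (0.03) and for ITGB8 without the second female one (0.04). Leaving out each library in turn, the number of members called ran from 0 to 2 for gonadal against blood PGCs, 0 to 1 for E4.5 against E2.5, 0 to 5 for E6.5 against E2.5, 0 to 1 for the sexes at E2.5 (CLDN1, without the second male pool) and 0 to 4 for the sexes at E6.5, against 1, 1, 3, 0 and 1. Where this left 1 library in a group, that library was taken to vary like the others. Over all genes, more passed in each fit where the number of members rose, and fewer where it fell. The highest number for E6.5 against E2.5 includes ITGB3BP, a row matched by name alone. For gonadal against blood PGCs limma-voom gave 2 calls, median-of-ratios scaling 0, and the data without both first E4.5 pools 8. For E4.5 against E2.5 limma-voom, median-of-ratios scaling, no filter and the data without both first E4.5 pools each gave 0. For E6.5 against E2.5 it was 1 with no filter (PCDH17) and 7 without both first E4.5 pools. For the sexes at E6.5 limma-voom, median-of-ratios scaling and no filter each gave 0. There 0.0998%, 0.615% and 0.0549% of all genes passed, against 2.19% before. Over all genes, gonadal against blood PGCs gave 1.45% with limma-voom and 1.01% with median-of-ratios scaling, against 0.996%. E4.5 against E2.5 gave 0% with limma-voom, 0.0495% with median-of-ratios scaling and 0.01% with no filter, against 0.184%. E6.5 against E2.5 gave 0.861% with no filter, against 1.98%. Without both first E4.5 pools, more of all genes passed for gonadal against blood PGCs and for E6.5 against E2.5. ITGB3BP is among the members called in both. The number of members called stayed at 0 for the sexes over all stages, the sexes at E4.5 and the sex difference between sites in every alternative run. Median-of-ratios scaling moved the median log2 difference of all genes from -0.09 to 0.01 for gonadal against blood PGCs, and the calls over all genes from 27 higher and 114 lower to 44 and 99.

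With the replicate number as a block, 6 members were called for gonadal against blood PGCs, where 6.62% of all genes passed. The 6 include ITGB3BP, a row matched by name alone. For E4.5 against E2.5 it was 2 (3.68% of all genes) and for E6.5 against E2.5 it was 8, again with ITGB3BP (11.9%). For the sexes at E2.5 it was 1, CLDN1, where 4.55% of all genes passed. The labels tie same-numbered pools by nothing but the number. The correlation of their deviations from the group means was 0.24 for the E2.5, 0.67 for the E4.5 and -0.13 for the E6.5 libraries, so the E4.5 pools deviated together and the E6.5 pools did not. A crossed replicate block, chosen after seeing the data, called 2 members for the sexes at E6.5, where 4.68% of all genes passed. These were CLDN10, and CDH17, which passed the filter there only through the female pools. The crossed block called 0 members for gonadal against blood PGCs, E4.5 against E2.5 and E6.5 against E2.5. Over all genes it called 0%, 0% and 0.212% there. Every member call of those comparisons was thus lost, but so were all or most calls over all genes. Depth limited genes under about 0.386 to 0.702 TPM for a gene of 1 kb.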

Other observations

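Some epithelial members were low and uneven between libraries, and are named after their values were seen. CLDN16, a claudin of kidney tubules in mammals, had 8.27 TPM (40 reads) in the second female and 7.59 TPM (33 reads) in the first male E6.5 pool, 1 read in each of the other E6.5 libraries and 0 to 8 reads in the E4.5 and E2.5 libraries. CLDN2, a pore-forming claudin of kidney and gut in mammals, had 3.59 TPM (38 reads) in the second female E6.5 pool and 6 reads or fewer in every other library. CLDN18 had 24 reads (1.20 TPM) in the second male E4.5 pool and 15 reads (0.714 TPM) in the first female E2.5 pool. CDH17 had 14 reads (1.02 TPM) in the first male E4.5 pool, where the mesonephric markers summed to 27.3 TPM, the highest outside the female E6.5 pools.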
